A study of Homo sapiens with 25 samples.

Results

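A set of 6 RNA libraries from the human T-cell acute lymphoblastic leukaemia line DND-41, all grown in medium with 12.5% of the usual histidine, is described here: 3 collected on day 9 are compared with 3 collected on day 6. They are 6 of the 25 libraries of the series, grouped by their labels, and were chosen with earlier results of these data known. The other libraries came from the same line at 100%, 50% or 25% histidine on the same days or without histidine (day 6), and they entered the shared estimate of the spread. The 3 libraries of day 6 and 3 of day 9 at 100% histidine show what the same interval did in full medium. All cells are of 1 established line with no named genetic change or drug, so the groups differ only in histidine and in day as labelled. Whether replicates came from separate cultures is not stated. The p-values therefore reflect only how far these libraries scatter, which may be technical. Day is also the day of collection, so time in low histidine, time in culture and anything done separately on the 2 days cannot be told apart.

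Histidine is an essential amino acid that human cells must take from the medium and load onto its tRNA by the synthetase HARS1. When an amino acid runs short, uncharged tRNA activates the kinase GCN2, which slows general translation and favours the transcription factor ATF4 and its targets for amino acid synthesis, uptake and tRNA charging. Amino acid supply also reaches the cell cycle through mTORC1. Immediate-early genes such as EGR1 and FOS answer growth factor and antigen receptor signals within minutes and carry binding sites for serum response factor, called CArG boxes. Genes for DNA replication are driven in late G1 by E2F factors. DND-41 cells correspond to an early cortical thymocyte and carry an active NOTCH1 and the homeobox factor TLX3.

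Promoters of EGR1, which had one of the largest falls, and of 3 DNA replication genes that rose are printed first, to show elements of these 2 kinds. They were picked because they hold a match, which most promoters of their lists do not. MCM2, MCM5, CHAF1B and RAD54L were looked up as well and gave none. Whether their promoters lacked an element or were not held was not recorded. PCNA, also looked up, held 1 E2F-type element and is not printed. Each run is the 250 bases before the RefSeq start site on GRCh38.p14, written 5′ to 3′ on the gene's strand. Capitals mark CArG boxes in EGR1, and in the other genes E2F-type elements, searched as TTTCCCGC, TTTGGCGC, TTTCGCGC and TTTGCCGC on both strands.
EGR1 (chr5:138465229-138465478, plus strand, 2 CArG boxes): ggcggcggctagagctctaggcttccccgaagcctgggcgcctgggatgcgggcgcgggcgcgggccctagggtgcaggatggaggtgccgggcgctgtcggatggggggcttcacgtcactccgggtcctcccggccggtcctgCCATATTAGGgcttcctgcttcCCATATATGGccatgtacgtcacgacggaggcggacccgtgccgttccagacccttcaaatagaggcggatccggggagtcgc
E2F1 (chr20:33686386-33686635, minus strand, 2 E2F-type elements): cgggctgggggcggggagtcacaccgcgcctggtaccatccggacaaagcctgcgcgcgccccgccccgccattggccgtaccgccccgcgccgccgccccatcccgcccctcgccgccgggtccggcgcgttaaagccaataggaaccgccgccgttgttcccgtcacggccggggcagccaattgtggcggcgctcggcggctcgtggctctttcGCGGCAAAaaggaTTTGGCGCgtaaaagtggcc
MCM3 (chr6:52284743-52284992, minus strand, 1 E2F-type element): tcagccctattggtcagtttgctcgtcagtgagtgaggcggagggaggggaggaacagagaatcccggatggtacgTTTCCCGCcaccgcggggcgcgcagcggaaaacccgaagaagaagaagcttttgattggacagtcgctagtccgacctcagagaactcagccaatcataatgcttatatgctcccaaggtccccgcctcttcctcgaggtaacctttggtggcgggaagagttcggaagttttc
CDT1 (chr16:88803539-88803788, plus strand, 1 E2F-type element): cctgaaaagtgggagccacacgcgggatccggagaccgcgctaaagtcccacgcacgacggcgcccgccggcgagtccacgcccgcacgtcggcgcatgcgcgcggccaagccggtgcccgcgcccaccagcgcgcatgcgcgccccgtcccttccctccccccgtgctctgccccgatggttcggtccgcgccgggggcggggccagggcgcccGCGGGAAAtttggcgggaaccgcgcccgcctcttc
E2F-type elements stood in 14 of 33 promoters of the DNA replication list that the RefSeq table holds (42.4%), against 508 of 11453 promoters of tested genes (4.44%) and 761 of all 27305 promoters (2.79%). They stood in 2 of 29 promoters of the mitosis list (6.9%). A CArG box stood in 1 of 20 immediate-early promoters, that of EGR1, against 312 of all 27305 promoters (1.14%). These are matches of letters, not measured binding.

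Values are the authors' normalized counts, and changes are day 9 minus day 6 on the log2(normalized count + 1) scale, which understates changes of low genes. The moderated test of limma was fitted to 18799 genes, with Benjamini-Hochberg adjustment over all of them and a threshold of 0.05. Below, "rose" and "fell" are used only of genes past it. The 25 libraries had normalized totals between 13.6 M and 16.1 M, so read depth itself is not known. At 12.5% the totals were 13.6, 14 and 14.8 M on day 6 and 15.4, 15 and 14.4 M on day 9. Genes at 10 or more numbered 16210, 16263 and 15594 on day 6 and 14790, 15057 and 15811 on day 9. In both measures replicate 3 of each day lay nearer the other day than replicates 1 and 2 did. The part of this in the calls was not tested. Of 14 tested T-cell leukaemia markers, CD3E, CD7, LCK and NOTCH1 were present in every library, at 12402 to 15339, 4220 to 5325, 4366 to 5420 and 7717 to 9539 normalized counts in the 6 compared libraries. Of the 14, 5 fell between the days at 12.5% (TLX3, RAG1, BCL11B, DNTT and CD5) and none rose, with a median of -0.24. Of all genes 3.41% fell. Without replicate 1 of day 6 or of day 9, 3 of the 14 fell. Their summed level was 72475, 75083 and 77546 on day 6 and 64060, 63587 and 59505 on day 9, without overlap. Keratin transcripts, which a T-cell line should lack, added up to 2.3 to 60.3 in these 6 libraries. They exceeded 100 in 2 of the 3 day 6 libraries at 100% histidine. RNAs without poly(A) tails were higher in sum on day 9, going from 4270, 3701 and 4665 on day 6 to 20380, 13207 and 24699 on day 9, with no overlap.

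At 12.5% histidine 921 genes rose between day 6 and day 9 (4.9% of those tested) and 641 fell (3.41%), or 1562 in all (8.31%). Called rises were smaller than called falls: the median size was 0.53 for rises and 0.77 for falls, and 63 rises against 242 falls exceeded 1 (log2). The 2 sets differed in kind of gene. Of the 921 rises 864 were protein-coding by RefSeq and 900 matched any RefSeq gene. Of the 641 falls, 409 and 499 did. With a filter of at least 50 in at least 3 libraries, 1146 genes rose and 620 fell. The part of gene kind or level in the sizes was not tested. The 3 libraries of one day lay wholly above or below those of the other for 865 of the rises and 629 of the falls, a separation that 5145 of all genes (27.4%) also had. After rescaling to the upper quartile 605 genes rose and 1017 fell, so the share of rises among calls turned from 59% to 37.3% as the median of all genes moved from -0.0135 to -0.104. Fitted to the 6 compared libraries alone, the test called 128 rises and 131 falls. Leaving out replicate 1 of day 6 gave 260 rises and 199 falls, replicate 2 of day 6 gave 419 and 263, and replicate 1 of day 9 gave 299 and 260. Without replicate 3 of day 6 there were 1539 rises and 691 falls, and without replicate 3 of day 9 572 and 448. Without each of the 6 in turn, 196 rises and 142 falls were called every time, and the genes described first in each group below are among these unless a value says otherwise.

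In full medium fewer genes passed over the same interval: 206 rose (1.1%) and 202 fell (1.07%), 2.17% together. These counts were 12 and 9 without the keratin-high libraries, which include replicates 1 and 2 of day 6 at 100%. Leaving out 1 library at 100% gave, as rises and falls, 125 and 108, 78 and 73, or 72 and 132 without replicate 1, 2 or 3 of day 6, and 132 and 200, 78 and 99, or 101 and 139 without replicate 1, 2 or 3 of day 9. The shared genes given next rest on the larger counts. The comparisons at 12.5% and 100% share no library. Of the 921 rises at 12.5%, 101 also rose at 100% (11% of the first list, 49% of the second), and of the 641 falls 78 also fell (12.2% and 38.6%), with 2 genes called in opposite directions. At 50% histidine 197 genes rose (1.05%) and 202 fell (1.07%), 2.12% together. Of these, 115 and 82 were shared with 12.5% (12.5% and 12.8% of the calls at 12.5%, 58.4% and 40.6% of those at 50%). At 25%, 115 rose (0.612%) and 91 fell (0.484%), and 33 and 50 were shared (3.58% and 7.8% of the calls at 12.5%, 28.7% and 54.9% of those at 25%). At all 4 levels 19 genes rose and 19 fell. The 25% group of day 6 and the 50% group of day 9 had 2 libraries each, which lowers the number of genes that can pass there. Against the change in full medium, the change at 12.5% itself differed for 12 genes (0.0638%), described last. Most of the lists below are therefore not shown to have changed by a different amount than in full medium.

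**Figure D1:**
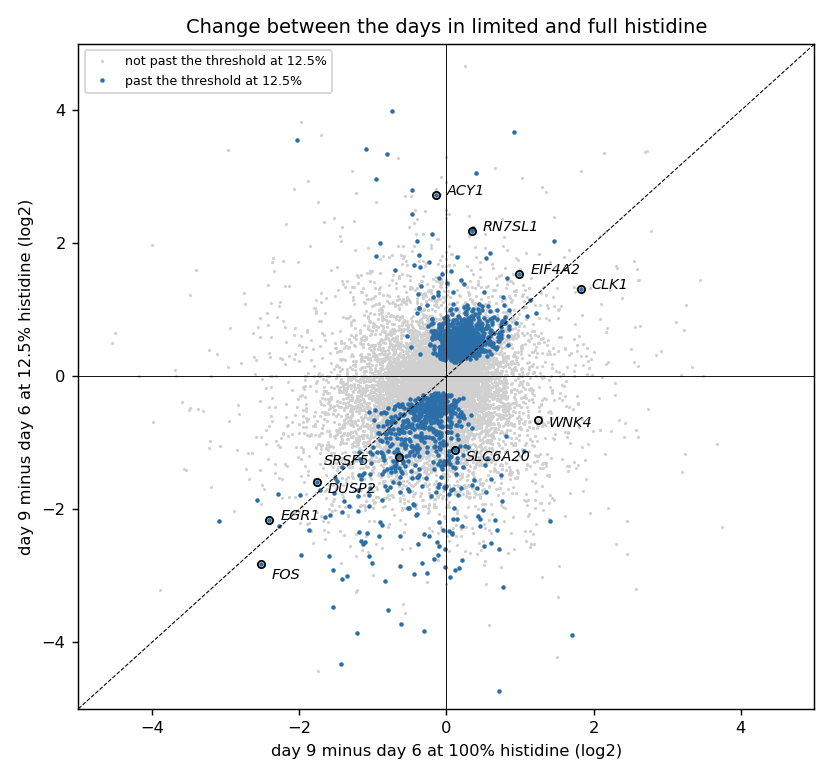
Each point is 1 of the 18799 tested genes, with the change from day 6 to day 9 at 100% histidine (x axis, log2) against that at 12.5% (y axis, log2). Blue points passed the threshold at 12.5%, the dashed line marks equal change, and 2 genes lie outside the axes. EGR1, FOS and DUSP2 lie near the line, and ACY1 off it.

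A few immediate-early genes fell, among them FOS and EGR1, which are 2 of the 10 largest falls. EGR1 (chromosome 5, 138465479 to 138469303), a zinc finger factor induced by growth and receptor signals, had 6724, 5780 and 5162 normalized counts on day 6 and 1392, 1306 and 1222 on day 9. Every day 6 library was above every day 9 library by a wide margin (log2 change -2.16 ± 0.20 SE, adjusted p = 7.99e-07, n = 3 each). FOS, a subunit of AP-1, had 105, 87.1 and 64 on day 6 and 12.4, 10.9 and 9.59 on day 9 (log2 change -2.83 ± 0.32 SE, adjusted p = 1.56e-05). EGR2, a relative of EGR1, had 67.7, 83.5 and 63 against 24.2, 19.5 and 21.6 (log2 change -1.67, adjusted p = 0.00194). The ERK phosphatase gene DUSP2 had 362, 278 and 429 against 128, 103 and 117 (log2 change -1.59, adjusted p = 0.000143). In none of these did the days overlap. IER2 fell by 0.51 on the log2 scale. DUSP6, which removes phosphate from ERK, fell by 0.31 (adjusted p = 0.0449), a call that ended without any one of the 6 libraries. These were the 6 of 27 tested immediate-early genes that fell (22.2%, against 3.41% of all genes), and none rose. The list's median was -0.19, against -0.01 for all genes. Of the others, JUN was at 935, 951 and 865 against 938, 1011 and 743, and ATF3 at 307, 334 and 329 against 539, 407 and 463 (adjusted p = 0.895 and 0.19). In full medium EGR1, FOS and DUSP2 fell by similar amounts (log2 changes -2.41, -2.52 and -1.76, adjusted p = 2.87e-07, 8.63e-05 and 7.61e-05). The difference between the media was 0.24, -0.31 and 0.17 for the 3 genes and did not pass (adjusted p = 0.814, 0.864 and 0.899).

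**Figure D2:**
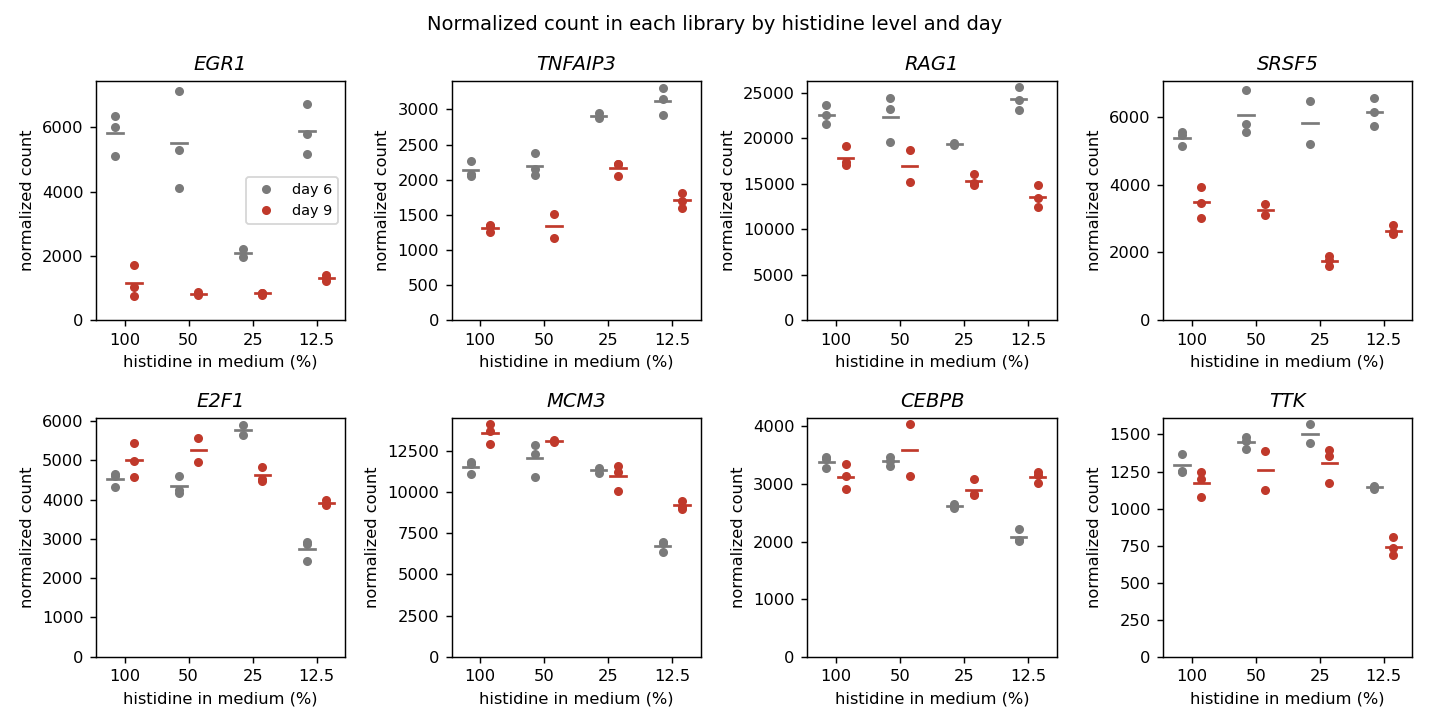
Normalized count (y axis, from 0) of 8 genes in each library of the 4 groups that hold both days, by histidine level (x axis, %). Grey points are day 6, red points day 9, and bars are means of 2 or 3 libraries. EGR1 is high on day 6 and between 1222 and 1392 on day 9 at 12.5%, and TTK is between 1132 and 1153 on day 6 and between 687 and 810 on day 9 there.

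Of 21 tested feedback genes of NF-kB, which the pathway induces to limit itself, 5 fell (23.8%, against 3.41% of all genes) and none rose. On day 9, 6 of the 21 were higher. TNFAIP3, the ubiquitin editor A20, had 3146, 3298 and 2919 on day 6 and 1695, 1812 and 1603 on day 9. The 2 sets are far apart (log2 change -0.87 ± 0.09 SE, adjusted p = 2.23e-06), and TNFAIP3 also fell in full medium, by 0.69 on the log2 scale. NFKBIZ, TNF, CFLAR and ICAM1 fell too, by 0.90, 0.65, 0.50 and 0.65, and the list's median was -0.23. Only TNFAIP3 kept its call without each library. Without replicate 1 of day 6, for example, adjusted p was 0.0944 for NFKBIZ, 0.0807 for TNF and 0.132 for CFLAR, and without replicate 1 of day 9 it was 0.217 for ICAM1. The count was then 2 without replicate 1 of day 6 or replicate 1 or 2 of day 9. Of 33 interferon-response genes 5 fell (15.2%, against 3.41% of all genes) and none rose. IFIT3 had 290, 311 and 287 against 180, 173 and 180 (log2 change -0.73, adjusted p = 0.0145) and the days did not overlap. IFIT1, another antiviral gene, had 54.6, 75.7 and 61.2 against 20.2, 29.1 and 42.6 (log2 change -1.08, adjusted p = 0.0158). Leaving out replicate 1 of day 9 ended the calls of both (adjusted p = 0.0503 and 0.112), and no call of this list remained then. Counts were 1 without replicate 1 of day 6 and 2 without replicate 2 of day 6 or replicate 3 of day 9.

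The smallest p-value of the whole comparison was that of CSF1, the macrophage growth factor, at 1043, 954 and 1032 on day 6 and 445, 420 and 401 on day 9 (log2 change -1.26 ± 0.10 SE, adjusted p = 1.14e-07). ID2, an inhibitor of the E proteins that direct early lymphocyte development, had 1832, 1637 and 1725 against 759, 775 and 823 (log2 change -1.14 ± 0.10 SE, adjusted p = 4.31e-07). Both genes were lower in every day 9 library by more than the whole spread of either day. They also fell in full medium, by 0.85 and 1.19 on the log2 scale.

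Genes of thymocyte identity fell in part. RAG1 (chromosome 11, 36510353 to 36579762), the recombinase that rearranges antigen receptor genes, had 25645, 24247 and 23155 on day 6 and 13430, 14823 and 12463 on day 9 (log2 change -0.85 ± 0.10 SE, adjusted p = 1.83e-05). Its partner RAG2 had 728, 671 and 734 against 522, 484 and 549 (log2 change -0.46, adjusted p = 0.00351). CD38, a surface enzyme of immature lymphocytes, had 8215, 8103 and 8673 against 4917, 5584 and 5128 (log2 change -0.68, adjusted p = 4.71e-06). For these 3 genes no library of one day reached the range of the other. In full medium RAG1 went from 22593 ± 1059 to 17840 ± 1118 (SD, n = 3 each), which did not pass (log2 change -0.34, adjusted p = 0.066), and the difference between the media did not pass either (-0.50, adjusted p = 0.215). CD69, an early activation antigen, fell by 0.85 and IL7R, the receptor for the thymic growth factor interleukin 7, by 0.37. CD5 fell by 0.73 and DNTT, the polymerase that adds bases at receptor joints, by 0.68. Without replicate 1 of day 6 the adjusted p of CD5 and DNTT was 0.0542 and 0.0706. They were not called either without replicate 1 of day 9 for CD5 (adjusted p = 0.0751) and replicates 3 of day 6 and day 9 for DNTT (adjusted p = 0.085 and 0.114). In all, 7 of 36 tested members of the thymocyte surface and receptor list fell and none rose, with a median of -0.12. That is 19.4%, against 3.41% of all genes that fell.

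T-lineage transcription factors went both ways. BCL11B, which holds cells in the T lineage, had 5112, 4797 and 4312 on day 6 and 2655, 3055 and 2601 on day 9 (log2 change -0.77 ± 0.10 SE, adjusted p = 0.000141). MYB, which sustains proliferation of leukaemic T cells, had 5066, 5295 and 5107 against 7134, 7592 and 6767 (log2 change 0.47 ± 0.07 SE, adjusted p = 0.000611). RUNX3 had 609, 602 and 602 against 852, 916 and 845 (log2 change 0.53, adjusted p = 0.00577). In each gene the days were separate, in opposite directions for BCL11B and the other 2. GATA3 rose by 0.37 and the leukaemia's own driver TLX3, at 6229, 7612 and 7639 against 4948, 4932 and 5270, fell by 0.50. Their calls ended without replicate 1 of day 9 (adjusted p = 0.0784 and 0.057), that of GATA3 also without replicate 1 of day 6 (adjusted p = 0.0519) and that of TLX3 without replicate 2 of day 6 (adjusted p = 0.0658). With ID2, 3 of 27 tested factors rose and 3 fell, against 4.9% and 3.41% of all genes. BCL11B and MYB moved the same way in full medium (log2 changes -0.61 and 0.45). In these bulk samples fewer cells of a kind and less RNA per cell cannot be told apart.

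Many DNA replication genes rose. Of 38 tested genes of G1/S and DNA replication, 22 rose and none fell, 35 were higher on day 9, and the median change was 0.36. That is 57.9%, against 4.9% of all genes that rose. E2F1, the factor after which the E2F elements are named, had 2443, 2915 and 2862 on day 6 and 3871, 3891 and 3982 on day 9 (log2 change 0.52 ± 0.08 SE, adjusted p = 0.000611). MCM2, a subunit of the replicative helicase, had 2748, 3030 and 3132 against 4695, 4181 and 4631 (log2 change 0.60 ± 0.10 SE, adjusted p = 0.000752). CHAF1B, which loads histones behind the fork, had 505, 547 and 569 against 864, 820 and 819 (log2 change 0.63 ± 0.10 SE, adjusted p = 0.000616). The lowest day 9 library of each was above the highest of day 6. MCM3, MCM4 and MCM5, the helicase's other named subunits, rose by 0.45, 0.52 and 0.58, and the licensing factor CDT1 by 0.63. MCM3 had 6347, 6970 and 6907 against 9454, 9101 and 8982 (adjusted p = 0.00111), and CDT1 had 2682, 3365 and 3633 against 5000, 4728 and 5105 (adjusted p = 0.00336). Promoters of E2F1, MCM3 and CDT1 are among those printed above. FEN1 brought the genes that kept their call without each library to 8. The count was 9 without replicate 1 of day 6 and 14 without replicate 2 of day 6 or replicate 1 of day 9, and 6 in the fit on the 6 libraries alone, but 18 after upper-quartile rescaling.

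The same genes began from a low level. On day 6 MCM2 stood at 2970 ± 199 at 12.5% and 9385 ± 493 at 100% histidine, and on day 9 at 4502 ± 280 and 11468 ± 860 (SD, n = 3 each). The rise therefore left MCM2 well under its level in full medium. Of the 38 genes, 31 were lower at 12.5% than at 100% on day 6 (15.3% of all genes were) and 24 on day 9 (11.5% of all genes), with medians of -0.60 and -0.40. Higher at 12.5% were 1 and 0 of the 38, against 11.7% and 9.35% of all genes, and 27% and 20.8% of all genes differed either way. In full medium 3 of the 38 rose between the days (1.1% of all genes did), with a median of 0.18. For E2F1, MCM2, MCM3, MCM5 and CDT1 the difference between the media ranged from 0.21 to 0.57 and did not pass (lowest adjusted p = 0.236). Those comparisons share libraries with the one described here.

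Some genes of mitosis fell. Of 35 tested genes of G2/M and mitosis 8 fell and none rose, 29 were lower on day 9, and the median was -0.14. That is 22.9%, against 3.41% of all genes that fell. In full medium 2 of the 35 fell (1.07% of all genes did), with a median of -0.23. The difference between the media passed for none. TTK, the spindle checkpoint kinase, had 1146, 1132 and 1153 on day 6 and 810, 687 and 735 on day 9 (log2 change -0.62 ± 0.10 SE, adjusted p = 0.000518). CENPF, a kinetochore protein of G2 and M, had 9667, 9599 and 8542 against 4574, 6308 and 5405 (log2 change -0.78 ± 0.14 SE, adjusted p = 0.00133). Neither gene overlapped between the days. The spindle genes DLGAP5 and HMMR fell by 0.46 and 0.44. MKI67, the antigen of cycling cells, had 29879, 32096 and 27390 against 16991, 22677 and 19148 (log2 change -0.61, adjusted p = 0.0125). That call ended without replicate 1 or 2 of day 6 or replicate 1 of day 9 (adjusted p = 0.0519, 0.0627 and 0.0824). NUSAP1, KIF20A and TOP2A fell by 0.32, 0.36 and 0.32, and none of the 3 passed without replicate 2 of day 6 (adjusted p = 0.0758, 0.0561 and 0.0944). The count was 4 without that library. Among the mitotic kinases that did not pass, PLK1 had 1744, 2169 and 2628 against 2427, 1981 and 1835, and AURKB 1004, 1352 and 1567 against 1263, 1191 and 1228 (adjusted p = 0.844 and 0.791). Their days overlapped.

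**Figure D3:**
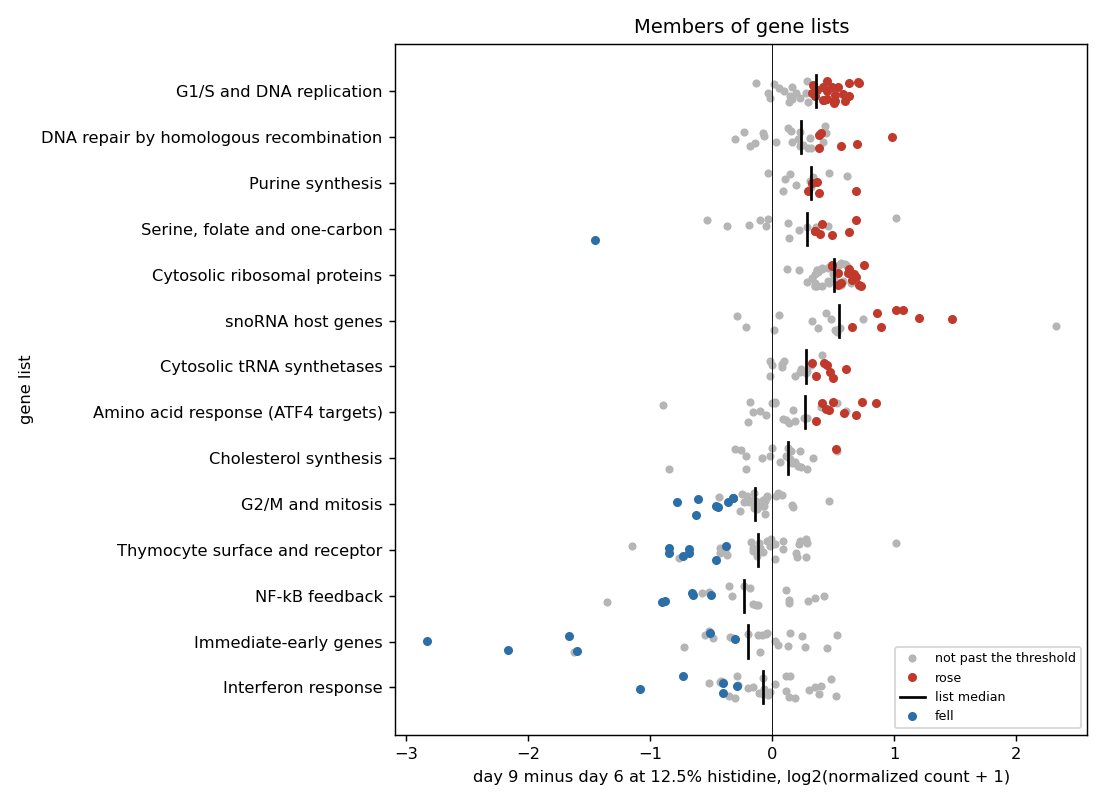
Change from day 6 to day 9 at 12.5% histidine (x axis, log2) of every tested member of 14 gene lists (y axis). Red points rose, blue points fell, grey points did not pass, and black bars are list medians. The replication list sits to the right with a median of 0.36 and the mitosis list to the left with -0.14.

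Some genes of repair and nucleotide supply rose as well. Of 26 genes of homologous recombination 6 rose (23.1%, against 4.9% of all genes) and none fell (median 0.24). RAD54L, which remodels recombination filaments, had 914, 1092 and 1017 against 1442, 1520 and 1493 (log2 change 0.56 ± 0.07 SE, adjusted p = 0.000141). FANCE, a subunit of the Fanconi core complex, had 146, 197 and 185 against 398, 330 and 312 (log2 change 0.98, adjusted p = 0.00058). The days did not overlap in either gene. FANCC, EXO1 and RBBP8 kept their calls without each library as well. FANCA (adjusted p = 0.0401) did not pass without any one of them. Of 15 genes of purine synthesis 5 rose (33.3%, against 4.9% of all genes) and none fell (median 0.32). IMPDH2, the committed step to guanine nucleotides, led with 980, 872 and 1184 against 1771, 1612 and 1487 (log2 change 0.69, adjusted p = 0.0035). That was the only 1 of the 5 that kept its call without each library, and the count fell to 1 without replicate 1 of day 6, 2 without replicate 2 of day 6 or replicate 1 of day 9 and 3 without replicate 3 of day 9. Without replicate 3 of day 6 it was 8. Of 21 genes of serine, folate and one-carbon metabolism 7 rose, against 4.9% of all genes. SHMT2 was among them, with 3639, 4433 and 5534 against 7228, 6623 and 6878. The methyltransferase GNMT fell, at 47.6, 73.4 and 51.6 against 20, 17.7 and 23. None of the 8 kept its call without each library. Rises numbered 1 without replicate 1 of day 6 or of day 9, 2 without replicate 2 of day 6, 4 without replicate 2 of day 9 and 3 without replicate 3 of day 9, SHMT2 had adjusted p = 0.0889 without replicate 1 of day 6, and GNMT 0.0528 without replicate 2 of day 6.

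A part of the ATF4 targets rose modestly, and the stress genes DDIT3, CHAC1 and ASNS did not pass. Of 30 tested genes of the amino acid response 9 rose (30%, against 4.9% of all genes) and none fell. On day 9, 23 were higher, with a median of 0.27. Against 100% histidine, 9 of the 30 were lower and 4 higher at 12.5% on day 6 (median -0.22). Of all genes 15.3% and 11.7% were. On day 9, 5 were lower and 4 higher (median 0.09), against 11.5% and 9.35% of all genes. These comparisons share libraries with the one described here. In full medium 2 of the 30 rose between the days and 2 fell (median 0.08), against 1.1% and 1.07% of all genes. CEBPB, a bZIP partner of ATF4, had 2005, 2216 and 2027 on day 6 and 3207, 3024 and 3154 on day 9 (log2 change 0.59 ± 0.09 SE, adjusted p = 0.000324). PCK2, the mitochondrial PEP carboxykinase, had 1760, 1946 and 2254 against 3604, 3048 and 3248 (log2 change 0.74 ± 0.12 SE, adjusted p = 0.000951). CEBPG, another ATF4 partner, had 1578, 1692 and 1749 against 2259, 2366 and 2317 (log2 change 0.47, adjusted p = 0.00137). All 3 were separate between the days and kept their calls without each library. TRIB3, a pseudokinase induced by ATF4, had 3986, 4387 and 4745 against 6453, 5412 and 5909 (log2 change 0.44, adjusted p = 0.0153). That call ended without replicate 1 of day 6 or of day 9 (adjusted p = 0.0959 and 0.0932). MTHFD2, PHGDH, WARS1, SLC6A9 and JDP2 also rose, by 0.36 to 0.85, and none of the 5 passed without replicate 1 of day 6 (adjusted p = 0.141, 0.152, 0.0532, 0.116 and 0.155). The count was 3 without that library, 4 without replicate 2 of day 6 or replicate 1 of day 9, and 6 without replicate 3 of day 9. DDIT3, the stress factor CHOP, had 405, 367 and 347 against 437, 352 and 407 (adjusted p = 0.658). CHAC1, a glutathione-degrading enzyme, had 490, 493 and 516 against 436, 416 and 494 (adjusted p = 0.607). Asparagine synthetase, ASNS, was low throughout, at 51.8, 86.8 and 74.8 against 21.5, 44 and 52.9 (adjusted p = 0.447).

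Enzymes that charge tRNA rose in part, and histidine's own did not pass. Of 20 cytosolic tRNA synthetases 7 rose (35%, against 4.9% of all genes) and none fell (median 0.28). In full medium 1 of the 20 rose (1.1% of all genes did), with a similar median of 0.26. The difference between the media passed for none. At 12.5%, 8 of the 20 were lower than at 100% on day 6 and 2 higher (15.3% and 11.7% of all genes). On day 9, 7 were lower and 1 higher (11.5% and 9.35% of all genes). IARS1, the isoleucine enzyme, had 4020, 3706 and 4095 against 6493, 5978 and 5524 (log2 change 0.60 ± 0.10 SE, adjusted p = 0.0013). AARS1, the alanine enzyme, had 2872, 3581 and 3634 against 4811, 4924 and 4461 (log2 change 0.50, adjusted p = 0.00471). Both were separate between the days and kept their calls without each library, unlike the other 5. The count was 2 without replicate 1 of day 6 or of day 9 and 3 without replicate 2 of day 6. HARS1, which charges the histidine tRNA, had 843, 825 and 915 against 915, 870 and 797, with overlapping days (log2 change -0.00 ± 0.09 SE, adjusted p = 0.994). None of 16 tested genes for histidine charging, transport and use passed in limma's test, and 2 had an unadjusted p under 0.05. With replicate 3 of day 6 left out, 2 of them rose. The main transporter gene of large neutral amino acids, SLC7A5, was at 21662, 25372 and 25606 against 28283, 27942 and 23835 (adjusted p = 0.505).

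Cholesterol synthesis genes were low at 12.5% histidine on both days. Of 23 cholesterol synthesis genes 18 were lower at 12.5% than at 100% on day 6 and 18 on day 9 (medians -1.14 and -1.08), and none was higher. Of all genes 15.3% were lower on day 6 and 11.5% on day 9. Between the days 1 of the 23 rose (4.35%, against 4.9% of all genes), and none fell, with a median of 0.13. That gene, MSMO1, which removes methyl groups from sterol intermediates, had 231, 183 and 285 against 375, 311 and 305. It did not pass without replicate 1 or 2 of day 6 or replicate 1 of day 9 (adjusted p = 0.0694, 0.136 and 0.124) or without the keratin-high libraries. HMGCS1, an early enzyme of the pathway, had 1161, 1194 and 1273 against 1069, 1099 and 969 (log2 change -0.21 ± 0.11 SE, adjusted p = 0.224). SCD, the desaturase of stearate, had 6561, 6289 and 6657 against 6168, 6165 and 5073 (log2 change -0.17 ± 0.09 SE, adjusted p = 0.228). Among 16 genes of sterol sensing and uptake 4 fell (25%, against 3.41% of all genes) and none rose, with a median of 0.04. SREBF1, the factor that drives lipid synthesis genes, fell by 0.48, as did STARD4, and the sterol exporter gene ABCG1 fell by 0.42. These 3 did not pass without replicate 2 of day 6 (adjusted p = 0.0821, 0.0571 and 0.0804), nor without replicate 3 of day 9. The count of falls was 1 without either library and 2 without replicate 1 or 3 of day 6.

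Ribosomal protein genes were all higher on day 9, with fewer past the threshold. All 45 tested genes had a positive change, and the median was 0.50, against -0.01 for all genes. Of the 45, 13 rose (28.9%, against 4.9% of all genes). At 12.5%, 20 of the 45 were lower than at 100% on day 6 and 5 on day 9 (medians -0.42 and 0.02). Of all genes 15.3% and 11.5% were lower. Higher were 0 and 1 of the 45, against 11.7% and 9.35% of all genes. Those comparisons share libraries with the one described here. RPL12, of the ribosome's stalk base, had 2401, 2331 and 3026 against 4934, 3743 and 4009 (log2 change 0.71 ± 0.15 SE, adjusted p = 0.00647). RPL4, of the large subunit, had 2803, 2922 and 3620 against 6182, 4113 and 5555 (log2 change 0.75, adjusted p = 0.0208). Neither overlapped between days. The summed level of all 45 was 241752, 276533 and 389239 on day 6 and 478377, 358546 and 423984 on day 9, so replicate 3 of day 6 lay inside the range of day 9. Without that library 41 of the 45 rose. The count was 1 without replicate 1 or 2 of day 6, 0 without replicate 1 of day 9, 23 without replicate 2 of day 9 and 2 without replicate 3 of day 9, and it was 0 in the fit on the 6 libraries alone. RPL12 did not pass without replicate 1 of day 9 (adjusted p = 0.0521), nor did RPL4 (adjusted p = 0.119). Without the keratin-high libraries of other groups 3 rose. In full medium none of the 45 rose (median 0.15), and the difference between the media passed for none of them.

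Hosts of small nucleolar RNAs, whose spliced transcripts are read by ribosomes and then decay quickly, rose as well. Of 20 tested host genes 7 rose (35%, against 4.9% of all genes) and none fell, with a median of 0.54. GAS5 had 1760, 1998 and 2689 against 4742, 3242 and 3907 (log2 change 0.89 ± 0.16 SE, adjusted p = 0.00228). SNHG12 had 316, 317 and 411 against 1099, 896 and 901 (log2 change 1.47 ± 0.30 SE, adjusted p = 0.00456). SNHG32 had 2048, 2563 and 3238 against 5272, 4180 and 4575 (log2 change 0.86 ± 0.17 SE, adjusted p = 0.00442). Day 9 was above day 6 in every library for these 3, and none overlapped. In full medium none of the 20 passed (median -0.23), and GAS5 stood at 2127 ± 73.9 and 2127 ± 151 on the 2 days (SD, n = 3 each). The difference between the media did not pass for GAS5 (0.89, adjusted p = 0.197) or SNHG12 (1.58, adjusted p = 0.2). EPB41L4A-AS1, SNHG8, SNHG29 and SNHG15 rose by 0.65 to 1.20 but did not pass without replicate 1 of day 6 (adjusted p = 0.0542, 0.0966, 0.054 and 0.144). The count was 3 without that library and 4 without replicate 1 of day 9.

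**Figure D4:**
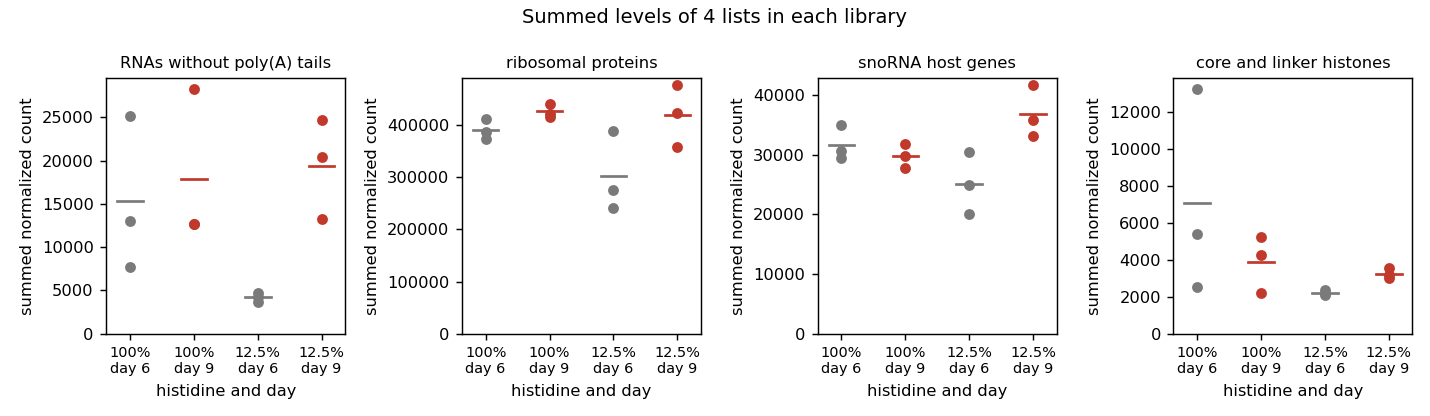
Summed normalized count (y axis, from 0) of tested members of 4 lists in each library at 100% and 12.5% histidine on each day (x axis). Points are libraries and bars means of 3. RNAs without poly(A) tails sum to 3701 to 4665 on day 6 at 12.5% and to 13207 to 24699 on day 9, and to 7737 to 28277 at 100%.

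EIF4A2, an RNA helicase of translation initiation that hosts small nucleolar RNAs in its introns, had 548, 570 and 1000 on day 6 and 2074, 1856 and 2004 on day 9. The lowest day 9 library was well above the highest day 6 library (log2 change 1.54 ± 0.19 SE, adjusted p = 5.57e-05), and EIF4A2 rose by 0.99 in full medium. EIF4EBP1, which restrains cap-dependent translation and is an mTORC1 substrate, had 1933, 2351 and 2914 against 4561, 3611 and 4287 (log2 change 0.80, adjusted p = 0.00421). RN7SL1 and RN7SL2, near-identical copies of the signal recognition particle RNA, which has no poly(A) tail, rose by 2.18 and 2.23 (adjusted p = 0.00555 and 0.00532). RN7SL1 had 1381, 1175 and 1500 against 6919, 4244 and 7783. Reads of the 2 copies may be split between them, so each level is uncertain. They were the 2 of 12 tested RNAs without poly(A) tails that rose, and the list's median was 1.25 with 11 higher on day 9. At 12.5%, 8 of the 12 were lower than at 100% on day 6 and 0 on day 9 (medians -1.67 and 0.07). Of all genes 15.3% and 11.5% were lower, and 0 of the 12 were higher on either day. 5.8S ribosomal RNA had 88.2, 79.8 and 74.8 against 95.8, 138 and 152. Replication-dependent histone genes, which also lack poly(A) tails, had a median change of 0.60 over 45 tested genes, of which 3 rose and none fell. That is 6.67% called, near the share of all genes, of which 4.9% rose and 8.31% rose or fell. H1-3 had 16.2, 11.3 and 7.36 against 31.4, 45.9 and 50.6. H2BC5 and H4C2 did not pass without replicate 1 of day 6 (adjusted p = 0.0586 and 0.0654), and without replicate 2 of either day H1-3 alone was called. The summed level of RNAs without poly(A) tails was thus higher on the day on which ribosomal protein, host and histone genes were higher. Its part in those results was not tested. In a fit with the 5.8S level as a covariate, chosen after seeing the data, 17 ribosomal protein genes, 10 host genes and 3 histone genes rose. But 5.8S did not follow that sum across libraries, so this fit cannot decide the matter. At sums of 24700 and 25200, 5.8S was at 152 (12.5%, day 9, replicate 3) and 1180 (100%, day 6, replicate 3).

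Splicing regulators changed in both directions with the days well apart. SRSF5, an SR protein that activates exons, had 6156, 5735 and 6558 on day 6 and 2804, 2536 and 2591 on day 9 (log2 change -1.22 ± 0.11 SE, adjusted p = 4.31e-07). CLK1, a kinase that phosphorylates SR proteins, had 462, 607 and 555 against 1320, 1351 and 1342 (log2 change 1.31 ± 0.20 SE, adjusted p = 0.000549). SRSF1 and SRSF10, 2 further SR proteins, rose by 0.46 and 0.36. These 4 kept their calls without each library. CLK4 rose by 0.95, and SRSF6 and SON fell. Their calls ended without replicate 1 of day 6 (adjusted p = 0.0716, 0.0544 and 0.0832). In all 4 of 25 members rose and 3 fell, against 4.9% and 3.41% of all genes, with a median of 0.05. Without replicate 1 of day 6, 1 fell, and without replicate 2 of day 6 or replicate 1 of day 9, 2 fell. SRSF5 and CLK1 moved the same way in full medium (log2 changes -0.64 and 1.83).

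Chaperone genes rose in a few cases. DNAJB1, a co-chaperone of HSP70, had 2211, 2535 and 2742 against 4257, 4238 and 4319 (log2 change 0.78 ± 0.12 SE, adjusted p = 0.000518). HSPA1B, an inducible HSP70 whose near-identical copy HSPA1A may share its reads, had 2448, 2528 and 2506 against 4744, 4685 and 4163 (log2 change 0.86, adjusted p = 0.015). With HSF1, the heat shock factor, 3 of 22 rose (13.6%, against 4.9% of all genes) and none fell. HSPA1B and HSF1 did not pass without replicate 1 of day 6 (adjusted p = 0.0609 and 0.12) or of day 9 (adjusted p = 0.0658 and 0.0742), so that 1 gene was called. Of 25 genes of the unfolded protein response 6 rose and 2 fell (median 0.22), against 4.9% and 3.41% of all genes. HERPUD1, of ER-associated degradation, had 715, 728 and 849 against 1274, 1128 and 1043 (log2 change 0.59, adjusted p = 0.00233), and DNAJB9, an ER co-chaperone, had 202, 166 and 197 against 367, 253 and 325 (log2 change 0.73, adjusted p = 0.00498). The 2 kept their calls without each library. The other 6 did not, and rises numbered 2 without replicate 1 or 2 of day 6 or replicate 1 of day 9 and 3 without replicate 2 or 3 of day 9.

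Of 6 tested GIMAP genes, GTPases of lymphocyte survival that lie side by side on chromosome 7, 4 rose and all were higher. Of all genes 4.9% rose. The lists were chosen with earlier results of these data known. In the fit on the 6 libraries alone 1 of the 6 genes rose. Between the same days 1 rose in full medium, 3 at 50% histidine and 0 at 25%. GIMAP5 had 1009, 1049 and 1115 against 1517, 1531 and 1606 (log2 change 0.55, adjusted p = 0.0028). GIMAP6 and GIMAP7 rose by 0.51 and 0.47, and GIMAP2 (0.45) did not pass without replicate 1 of day 6 (adjusted p = 0.0839). Of 29 tested FOXO and quiescence genes 1 rose and 3 fell (13.8% called, against 8.31% of all genes), with a median of -0.03. Among them the arrestins ARRDC4 and ARRDC3 fell by 0.74 and 0.59 and the antiproliferative TOB2 rose by 0.50. BCL2L11, the death-promoting BIM, had 1441, 1493 and 1354 against 1074, 1205 and 979 (log2 change -0.40, adjusted p = 0.00841). It was the only 1 of 17 tested BCL2 family genes called (5.88%, under the share of all genes). SLC2A3, a glucose transporter, fell by 0.58. Of 32 tested genes of glycolysis and hypoxia 1 rose and 2 fell (9.38% called, near the share of all genes). PHF13 (0.78), TMEM243 (0.77), CHST1 (0.79) and MED26 (0.86) had the smallest p-values among rises, with PHF13, a chromatin reader, at 590, 672 and 694 against 1158, 1211 and 1003 (adjusted p = 6.6e-06). Their days did not overlap.

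Ranked by size among separate genes averaging 50 or more on the higher day, the 10 largest rises were NOMO3, ACY1, RN7SL2, RN7SL1, GORAB, RIMS4, CHKB, GADD45G, MIR663A and EIF4A2. ACY1, an aminoacylase that frees amino acids from their acetyl forms, had 5.02, 12.8 and 25.6 against 108, 77.2 and 74.6 (log2 change 2.73 ± 0.37 SE, adjusted p = 0.00016). GADD45G, a stress-induced cell cycle regulator, had 22.1, 19 and 17.8 against 64.6, 67.9 and 61.8 (log2 change 1.68, adjusted p = 0.0084). Both stayed called without each library. NOMO3 has near-identical copies, and it did not pass without replicate 2 of day 6 or replicate 1 of day 9 (adjusted p = 0.061 and 0.0541). RIMS4 and CHKB did not pass without either of those, among others (adjusted p = 0.101 and 0.124 for RIMS4, 0.105 and 0.0616 for CHKB). The 10 largest falls were FOS, PTCSC1, MUC6, TENM1, EGR1, ARPP21-AS1, CDHR5, HERC2P2, IGHV1-24 and GNA15-DT. ARPP21-AS1, an antisense RNA, had 138, 172 and 127 against 23.1, 45.9 and 38.2 (log2 change -2.04 ± 0.23 SE, adjusted p = 1.83e-05). MUC6, TENM1, CDHR5 and the pseudogene HERC2P2 did not pass without replicate 1 of day 6 (adjusted p = 0.06, 0.0735, 0.124 and 0.11).

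For 12 genes the change between the days at 12.5% differed from that at 100% by a test of the difference itself, 8 upward (0.0426%) and 4 downward (0.0213%), and 1887 genes had an unadjusted p under 0.05. The 11 described here were not called in every alternative.

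**Figure D5:**
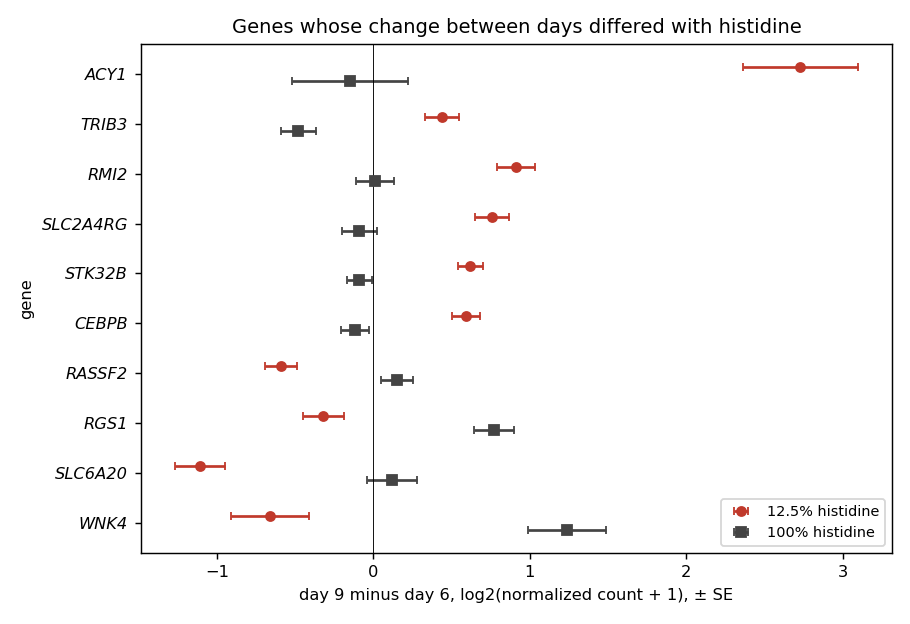
Change from day 6 to day 9 (x axis, log2, ± SE) at 12.5% (red circles) and 100% histidine (dark squares) of 10 genes (y axis) whose change differed between the media. RGS1 and WNK4 lie to the left of 0 at 12.5% and to the right at 100%.

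TRIB3 had 10247, 10111 and 10669 at 100% on day 6 and 8346, 6711 and 7328 on day 9, so that it fell there by 0.48 and rose at 12.5% by 0.44 (difference 0.91 ± 0.15 SE, adjusted p = 0.0203). CEBPB, with 3464, 3435 and 3270 against 3339, 2905 and 3144 at 100%, differed by 0.70 (adjusted p = 0.025). ACY1 had 108, 159 and 116 against 76.9, 111 and 171 at 100%, levels that it approached at 12.5% only on day 9 (difference 2.87 ± 0.53 SE, adjusted p = 0.0332). RMI2, of the complex that dissolves recombination intermediates, had 345, 456 and 514 against 831, 793 and 820 at 12.5% and 1841, 1664 and 1757 against 1748, 1694 and 1846 at 100% (difference 0.90, adjusted p = 0.0435). STK32B, a kinase, had 492, 502 and 530 against 748, 807 and 794 at 12.5% (difference 0.72, adjusted p = 0.0203), and SLC2A4RG differed by 0.86. CNTN3 was listed at 0 in the 3 day 6 libraries at 12.5% and had 6.33, 17.7 and 28.6 on day 9, against 27.8, 18.9 and 32.1 and then 8.17, 19.5 and 20.6 at 100%. Downward differences were found for SLC6A20, a proline transporter, with 714, 701 and 629 against 290, 326 and 327 at 12.5% and 224, 251 and 189 against 298, 204 and 223 at 100% (difference -1.23 ± 0.23 SE, adjusted p = 0.0332). RGS1, which damps G protein signals in lymphocytes, had 799, 996 and 1217 against 791, 713 and 887 at 12.5% and 486, 481 and 521 against 802, 866 and 866 at 100% (difference -1.08, adjusted p = 0.025). WNK4 and RASSF2 differed by -1.90 and -0.74. Each of these 11 lost its call in the fit on the compared groups alone and without the keratin-high libraries, which leave a single day 6 library at 100%. Each but CNTN3 also lost it with a keratin covariate and without at least 1 of the 12 compared libraries, for example without replicate 1 of day 6 or replicate 2 of day 9 at 100%.

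None of 33 lysosome and autophagy genes, 14 genes of antigen presentation and 13 mitochondrially encoded genes passed at 12.5% in limma's test, with 7, 3 and 0 of them at an unadjusted p under 0.05. In full medium 5 of the 13 mitochondrially encoded genes fell (1.07% of all genes did), with a median of -0.74 against 0.05 at 12.5%. The difference between the media passed for none of the 13. Of 36 nuclear genes of oxidative phosphorylation 35 were higher on day 9, with a median of 0.34. But 2 rose (5.56%, near the 4.9% of all genes), and 19 did without replicate 3 of day 6. MYC, the growth regulator downstream of NOTCH1, had 13216, 13570 and 13257 against 13036, 12002 and 11214 (log2 change -0.15 ± 0.08 SE, adjusted p = 0.25), and it fell by 0.51 in full medium. HES1, a direct NOTCH target, had 930, 1021 and 961 against 1049, 1012 and 1197 (adjusted p = 0.29). The cell cycle inhibitor CDKN1A had 274, 275 and 398 against 307, 257 and 326 (adjusted p = 0.774), where in full medium it fell by 0.86. For neither MYC nor CDKN1A did the difference between the media pass. Cyclin D2, CCND2, varied too widely to compare, at 161, 83.2 and 67.7 against 78, 24.8 and 9.16 (log2 change -1.83 ± 1.10 SE, adjusted p = 0.311). MMP9, which degrades extracellular matrix, had 42.6, 59.7 and 60.2 against 111, 77 and 103 (adjusted p = 0.265).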

How the data were processed

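Per the labels' protocols, total RNA of DND-41 cells went into libraries that keep strand. The authors deposited 1 signal table for the series, with values that are counts normalized by DESeq2. Per the submitters' processing notes, FastQC 0.11.9, kallisto 0.50.1, DESeq2 1.44.0 and GRCh38 were used. For the gene models and strand setting, the entry is "not given in the sources used here". In all the deposited table holds 31919 genes, 9278 of them named by Ensembl ID, and every column was mapped to a labelled sample.

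From these values log2(normalized count + 1) was computed and limma 3.58.1 (R 4.3.3, trend option, two-sided) fitted to 25 libraries in 9 groups with 16 residual degrees of freedom. Genes needed a value of at least 10 in at least 2 libraries (18799 genes), and p-values were adjusted by Benjamini-Hochberg over all of them. The script was tested on simulated data. Tables and figures used Python 3.11.15, pandas 2.3.3 and matplotlib 3.10.9. Gene positions and promoters are RefSeq's on GRCh38.p14.

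The members and gene lists were chosen with earlier results of these data known. Genes named are those past the threshold with a symbol, an average of 50 or more on the higher day and separate libraries that are among the 10 largest rises or falls or the 6 smallest p-values each way, the 4 largest day-by-histidine differences each way, up to 4 passing members of each list, and a fixed set (HARS1, ASNS, DDIT3, TRIB3, CHAC1, ATF5, TXNIP, HMGCS1, SCD, CCND2, CCND3, MCM2, MKI67, CDKN1A, MYC, HES1, EGR1, HSPA1B and MMP9), and some results that the rule covers are not reported here. Other list members named, such as JUN, ATF3, PLK1, AURKB and SLC7A5, and the remaining genes whose change differed between the media, were chosen after their values were seen. Alternatives were another pseudocount, filter, scaling, fit, covariate and set of libraries. The series' design text names days 3 and 6 where the sample labels say 6 and 9; the sample labels were used. For replicate 1 without histidine the title gives day 6 and the time label day 9, and the title was used.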

Additional observations from a re-analysis of the deposited data

Results flagged for a closer look

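For 7 genes named above, the difference between day 9 and day 6 at 12.5% histidine itself differed from that at 100% histidine by limma's test of the difference, with adjustment over all genes. On the log2 scale the differences were 2.87 for ACY1, 0.91 for TRIB3, 0.90 for RMI2, -1.90 for WNK4, -1.23 for SLC6A20, -1.08 for RGS1 and -0.74 for RASSF2. These 7 did not pass in 10 to 17 of 26 alternatives, among them the fit without the keratin-high libraries.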

How the results depend on the processing

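Replicate numbers did not pair the days at 12.5% (same-number correlations of -0.0389, 0.0111 and -0.0428), and with the replicate block 852 genes rose and 605 fell. The fit on the 6 libraries with the replicate block, chosen after seeing the data, called 4 rises and 4 falls, and 1 and 3 among members of the lists other than the marker lists (RN7SL1 and RN7SL2, of the RNAs without poly(A) tails, were 2 more of its rises). At 12.5%, 921 rises and 641 falls became 605 and 1017 with upper-quartile rescaling, 2075 and 1449 with estimated library weights and 128 and 131 with the compared groups only. Leaving out 1 library gave 260 to 1539 rises and 199 to 691 falls. At 100%, 206 rises and 202 falls became 522 and 547 with weights, 55 and 80 with the compared groups only and 12 and 9 without the keratin-high libraries. Rises there were 123 with no filter and 137 with upper-quartile rescaling (31.8% of calls, against 50.5%), and falls 129 with a keratin covariate. Leaving out 1 library gave 72 to 132 rises and 73 to 200 falls. For the difference between the media, 8 upward and 4 downward calls became 72 and 61 with weights, 3 and 0 without the trend, 1 and 0 with the compared groups only, 1 and 2 without the keratin-high libraries, 2 and 0 with a keratin covariate and 32 and 9 with the 5.8S covariate. Unadjusted p was under 0.05 in limma's test for 1800, 2064 and 1668 genes in the fits with 0 downward calls (no trend, compared groups only, keratin covariate). Downward calls were 7 with quantile normalization. Leaving out 1 library gave 2 to 15 upward and 0 to 4 downward. Of list members, marker lists left out, 119 rose and 57 fell. Rises were 78 without the trend, 262 with weights and 29 with the compared groups only, falls 95 with upper-quartile rescaling and 17 with the compared groups only. Leaving out 1 library gave 43 to 221 and 35 to 54. The causes were not tested. Genes near 0 changed sign: HARS1 was 0.04 with weights, 0.01 with the keratin covariate, 0.03 with the 5.8S covariate and 0.04 and 0.05 without replicate 3 of day 6 and of day 9 (-0.05 to 0.05 over single libraries left out). DDIT3 was -0.00 and TXNIP -0.02 with upper-quartile rescaling. CDKN1A was 0.01 with weights and 0.10 and 0.03 without replicate 3 of day 6 and replicate 2 of day 9 (-0.16 to 0.10 over single libraries left out). Over named genes and alternatives, 2962 of 3607 values kept direction and side of the threshold, 625 no longer passed and 10 newly passed. Whole reads could not be recovered (the best step put 37.8% to 76.2% of values below 20 within 0.05 of whole numbers), so the count test was not run and depth per gene is unknown.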
